A study of Mus musculus with 12 samples.

Results

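Integrin genes that blood stem cells are known to use were followed in 2 populations of mouse bone marrow cells, with and without the transcription factor NFAT5. The set was 10 genes chosen by name, with earlier results of these data known: Itga2b, Itga4, Itga5, Itga6, Itgal, Itgam, Itgb1, Itgb2, Itgb3 and Itgb5. All 10 were found among the 19494 genes measured, each by 1 probe set, and all 10 were among the 14620 genes tested. Cells came from 3 KO mice (Nfat5 fl/fl Vav-Cre, numbered 2, 11 and 70) and 3 WT mice (Nfat5 +/+ Vav-Cre, numbered 3, 12 and 64), so the WT mice carried the Cre as well. The Vav promoter drives the Cre across blood cells, so the deletion is directed at the whole blood lineage and not at stem cells alone. Each mouse gave a sample of hematopoietic stem cells (HSC, CD48-CD150+) and a sample of multipotent progenitors (MPP, CD48+CD150-), both sorted from untreated marrow within the LSK gate of lineage-negative, Sca1+ and Kit+ cells. This made 12 arrays in 4 groups of 3. The labels state no age or sex of the mice.

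Integrins are cell surface receptors made of an alpha chain paired with a beta chain. They hold blood cells to matrix and to ligands on neighbouring cells, and the pair that a cell carries sets what it can bind. In bone marrow, integrins with the beta1 chain tether stem and progenitor cells to fibronectin, laminin and VCAM1. The beta2 chain is found on leukocytes, and the pair of Itga2b and Itgb3 is the fibrinogen receptor of platelets and megakaryocytes.

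Values are the deposited log2 intensities, in which a difference of 1 is a doubling, and a mean is given ± SD over 3 arrays. A gene was called when limma's moderated test gave an adjusted p under 0.05 (Benjamini-Hochberg over all 14620 genes). Nfat5 read 7.34 to 7.89 in KO HSC, against 8.27 to 8.99 in WT HSC, and 6.99 to 7.45 in KO MPP, against 7.82 to 8.28 in WT MPP. The groups did not overlap in either population, although Nfat5 was not called (KO minus WT -0.91 in HSC, limma adjusted p = 0.566, and -0.87 in MPP, limma adjusted p = 0.99991). Whether its probe set lies in the deleted part was not examined. The sort genes followed the gates: the mean of Slamf1 (CD150) was 8.02 in KO HSC and 5.55 in KO MPP, and that of Cd48 was 5.52 in KO HSC and 8.70 in KO MPP. Ly6a was listed as a sort gene but was not found among the genes measured, so it was not analysed here. The HSC array of KO mouse 2 deviated most from its group (SD over genes 0.438, against 0.276 to 0.378 for the other 11 arrays). For some results of the members the value without this array is also given.

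Of the 10 integrin genes, 3 were called between HSC and MPP over both genotypes together, against 4.85% of all genes tested. That comparison was added after the data had been seen. Itgb5, the beta5 chain, was lower in HSC than in MPP of WT mice and the 1 member called there, against 2.07% of all genes. None was called in KO mice, against 1.26%. Over both genotypes together Itgb5 and Itgal, the alpha chain of the leukocyte integrin LFA1, were lower in HSC, and Itga6, a laminin receptor chain, was higher. HSC levels were 55.2% of MPP levels for Itgb5, 41.2% for Itgal and 278% for Itga6. No member was called between KO and WT cells, where 0% of all genes tested were called.

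**Figure D1:**
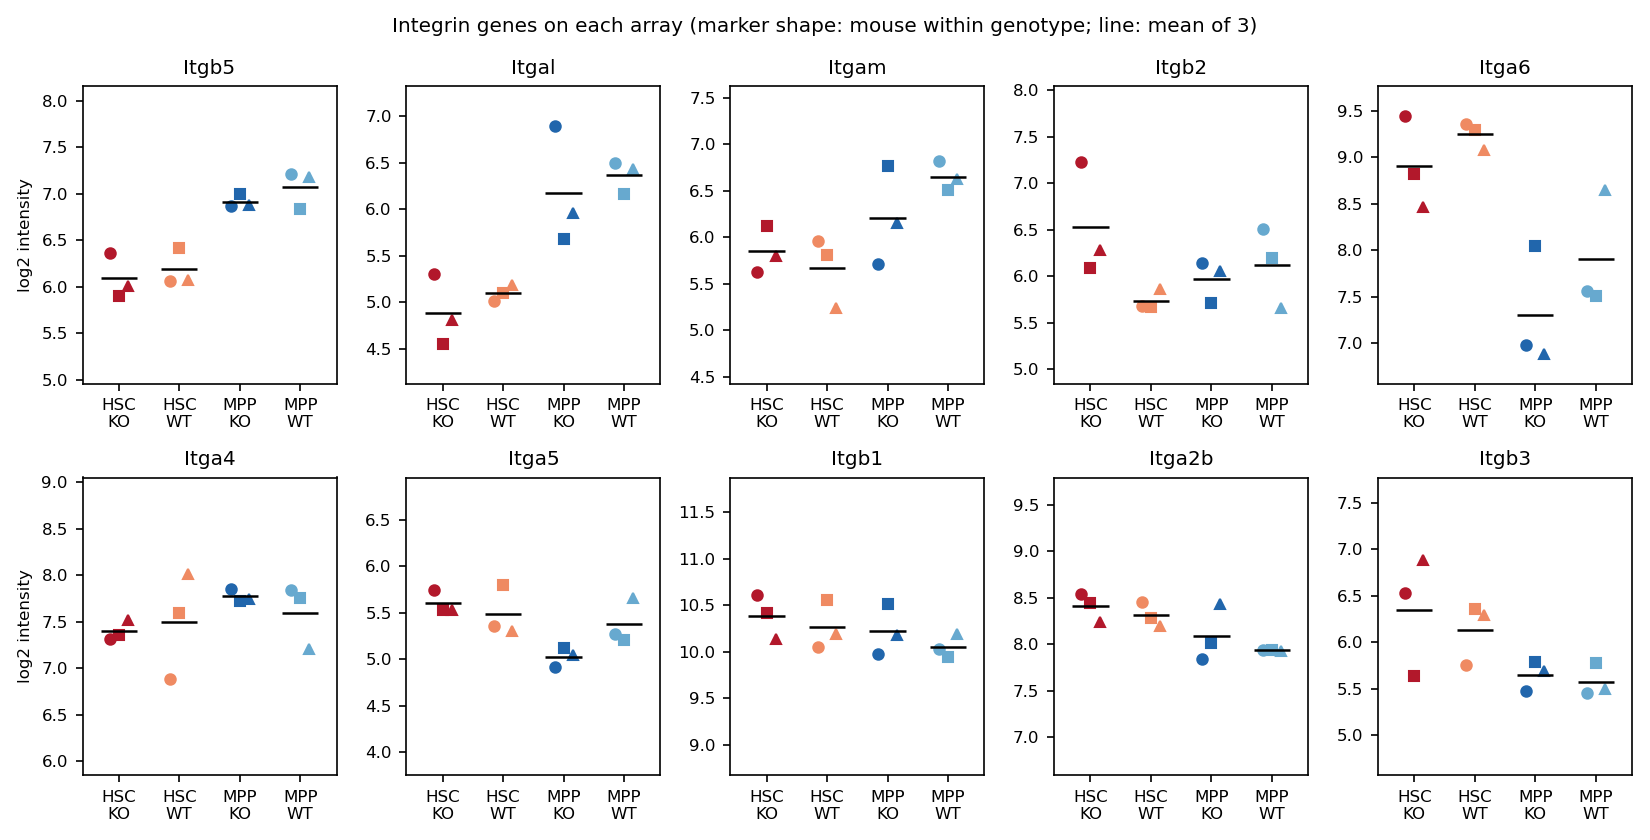
Log2 intensity of the 10 integrin genes on each of the 12 arrays, in the order KO HSC, WT HSC, KO MPP and WT MPP, with 3 mice per group as points (marker shape marks the mouse within a genotype) and the group mean as a line; each panel has its own axis start and the same span. All 6 HSC arrays lie below all 6 MPP arrays for Itgb5 and for Itgal.

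In KO mice 0 of 10 members were called between HSC and MPP, against 1.26% of all genes tested (184 genes). With the mouse as a block, 1 of 10 members, Itgal, and 113 genes were called there. In WT mice 1 of 10 members was called, lower in HSC, against 2.07% of all genes tested in both directions (302 genes) and 1.32% lower in HSC. This was Itgb5, and with the mouse as a block the 1 member called was Itgal in its place, among 180 genes. At an unadjusted p under 0.05, 5 of 10 members passed in KO mice and 5 of 10 in WT mice, against 12.4% of all genes in KO mice and 14.1% in WT mice. A comparison of HSC with MPP over both genotypes was added after the data had been seen and uses the same arrays. It called 3 of 10 members, against 4.85% of all genes tested (709 genes), of which 1 was higher in HSC, against 1.93% of all genes, and 2 were lower, against 2.92%. At an unadjusted p under 0.05 this comparison passed 7 of 10 members, against 19.6% of all genes. The members' median difference, HSC minus MPP, was 0.24 in KO mice and 0.00 in WT mice, against 0.05 and 0.03 for all genes tested. Their median absolute difference was 0.57 in KO mice and 0.47 in WT mice, and over both genotypes it was 0.49, against 0.19 for all genes tested. Because the members were chosen with earlier results of these data known, these counts and medians describe the set and do not test it. In these bulk samples, fewer cells of a type and less RNA per cell cannot be told apart.

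**Figure D2:**
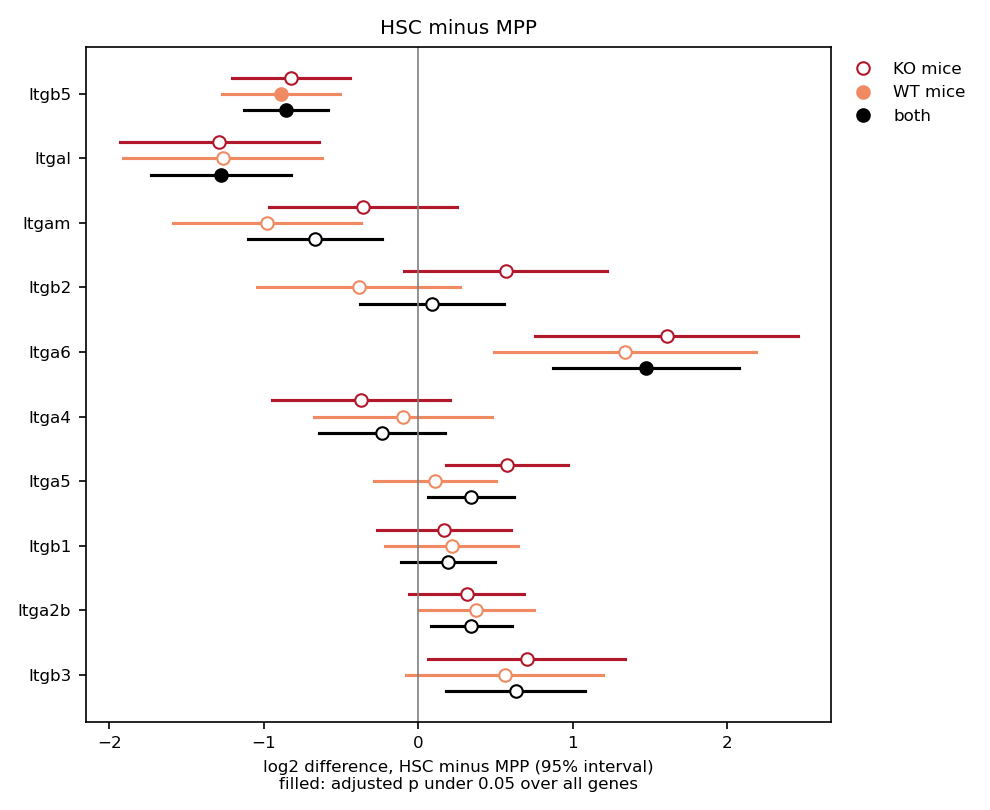
Log2 difference of HSC minus MPP for the 10 integrin genes in KO mice, in WT mice and over both genotypes, with 95% intervals from the limma fit of 12 arrays; filled points had an adjusted p under 0.05 over all genes. Itgb5 is filled in WT mice and over both genotypes, and Itgal and Itga6 over both genotypes only.

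Itgb5 encodes a beta chain that pairs with the alphaV chain to bind vitronectin. In HSC it read 6.36, 5.91 and 6.01 in KO mice 2, 11 and 70, against 6.07, 6.42 and 6.08 in WT mice 3, 12 and 64. In MPP the same mice gave 6.87, 7.00 and 6.87 for KO and 7.21, 6.83 and 7.18 for WT. Every HSC array was below every MPP array, and KO and WT arrays overlapped in both populations. The KO mean was 6.09 ± 0.237 in HSC and 6.92 ± 0.0744 in MPP, a difference of -0.82 that was not called (limma adjusted p = 0.0501). Without the HSC array of KO mouse 2 it was -0.96 and was called (adjusted p = 0.0476), as it was with array weights (0.0386) and without mouse 12 (0.0478). The WT mean was 6.19 ± 0.201 in HSC and 7.08 ± 0.21 in MPP, a difference of -0.89 (SE 0.17, limma adjusted p = 0.0283). With the mouse as a block that call was lost (adjusted p = 0.122), and it was also lost with only the arrays compared (0.0751) and without mouse 3 (0.239), mouse 64 (0.260) or mouse 70 (0.0620). Over both genotypes Itgb5 fell by 0.86 in HSC relative to MPP (SE 0.12, limma adjusted p = 0.00256), and this call was kept in all 14 alternative settings, with adjusted p-values between 0.00153 and 0.0292. Within single mice the difference ran from -1.15 to -0.41, lower in HSC in 6 of 6 mice.

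Itgav, the alphaV chain that Itgb5 and Itgb3 share, read 8.04 to 8.15 in KO HSC, 8.08 to 8.48 in WT HSC, 8.10 to 8.30 in KO MPP and 8.09 to 8.24 in WT MPP. Its HSC minus MPP difference was -0.14 in KO mice and 0.15 in WT mice, neither of them called (limma adjusted p = 0.735 and 0.690). In WT mice the 95% interval of the difference ran from -1.27 to -0.51 for Itgb5 and from -0.16 to 0.47 for Itgav.

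The promoter of Itgb5 is shown because Itgb5 is the member with the lowest adjusted p between HSC and MPP. RefSeq promoters of GRCm38.p6 were at hand for 6 of the 10 members (Itga2b, Itga4, Itga5, Itgam, Itgb1 and Itgb5), and the 250 bases before the gene start were used. The window of Itgb5 is chr16:33829415-33829664, plus strand, written 5′ to 3′ in the direction of transcription, with matches to the GC box GGGCGG on either strand in capitals.

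Itgb5: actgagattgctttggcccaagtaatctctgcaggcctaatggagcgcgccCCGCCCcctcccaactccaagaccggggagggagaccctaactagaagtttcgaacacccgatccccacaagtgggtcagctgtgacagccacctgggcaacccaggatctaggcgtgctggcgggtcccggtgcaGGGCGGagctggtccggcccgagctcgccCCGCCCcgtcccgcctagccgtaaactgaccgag

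The window holds 3 GC boxes, at 199, 63 and 34 bases before the start, of which that at 63 is on the strand of the gene. It has 65.2% G and C and 18 CG steps, against a median of 52.4% and 6 over 32851 promoters, and 32.7% of those promoters hold a GC box. No match to the NFAT5 core TGGAAA, the GATA motif AGATAA or the ETS motif GAGGAA lies in this window on either strand.

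The genes whose profile was most like that of Itgb5 over the 12 arrays, by the mean absolute difference of log2 values after centring each gene, were H2az1 (0.155), Crip1 (0.159) and Bicral (0.161), against a median of 0.497 over all genes. H2az1 encodes the histone variant H2A.Z and Crip1 a small LIM domain protein. Bicral, a component of a chromatin remodelling complex, averaged 6.95 in KO HSC, 6.90 in WT HSC, 7.69 in KO MPP and 7.62 in WT MPP. The 12 arrays share their normalization and come from 6 mice, so these likenesses are a description.

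Among the leukocyte integrins, Itgal was lower in HSC on every array. Itgal pairs with Itgb2 to form LFA1, which binds ICAM molecules. In HSC it read 5.31, 4.56 and 4.80 in KO mice and 5.01, 5.10 and 5.19 in WT mice. In MPP it read 6.90, 5.68 and 5.96 in KO mice and 6.50, 6.17 and 6.43 in WT mice. The HSC and MPP arrays did not overlap in either genotype, whereas KO and WT overlapped within each population. Over both genotypes Itgal fell by 1.28 in HSC relative to MPP (SE 0.21, limma adjusted p = 0.00479, called in all 13 alternatives that kept the gene). Single mice gave differences between -1.59 and -1.07.

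Within a genotype Itgal was not called: HSC minus MPP was -1.29 in KO mice (SE 0.29, limma adjusted p = 0.0645) and -1.27 in WT mice (SE 0.29, limma adjusted p = 0.0556). With the mouse as a block both were called (adjusted p = 0.0306 in KO mice and 0.0304 in WT mice). The mean of KO HSC, 4.89, was under the value of 4.96 below which a gene's mean over all arrays led to its removal. At such low intensities RMA can compress differences, and its effect on the size given for Itgal was not tested.

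Itgam, the alpha chain CD11b of myeloid cells, was lower in the HSC of each mouse, by between 0.08 and 1.39 on the log2 scale, but was not called. In HSC it read 5.63, 6.13 and 5.80 in KO mice and 5.96, 5.81 and 5.23 in WT mice. In MPP it read 5.71, 6.77 and 6.15 in KO mice and 6.82, 6.51 and 6.63 in WT mice. HSC and MPP were apart in WT mice and overlapped in KO mice. The difference was -0.36 in KO mice (limma adjusted p = 0.647), -0.98 in WT mice (0.122) and -0.67 over both (0.0839).

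Itgb2, the chain CD18 that Itgal and Itgam share, had differences of opposite sign in the 2 genotypes. In HSC it read 7.23, 6.09 and 6.28 in KO mice and 5.68, 5.67 and 5.86 in WT mice. In MPP it read 6.14, 5.71 and 6.06 in KO mice and 6.51, 6.19 and 5.66 in WT mice. HSC minus MPP was 0.56 in KO mice and -0.39 in WT mice, with overlapping arrays in both genotypes and no call (limma adjusted p = 0.486 and 0.616). The KO value was 0.21 without the HSC array of KO mouse 2 (limma adjusted p = 0.868). Over both genotypes the difference was 0.09 (95% interval -0.38 to 0.55), and it was -0.086 without the HSC array of KO mouse 2.

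Markers of mature leukocytes were measured on the same arrays. The mean log2 intensity of the monocyte and macrophage list (6 of 7 genes measured) was 5.21 to 5.85 over the 6 HSC arrays and 6.09 to 6.52 over the 6 MPP arrays. Of its 6 tested genes, Csf1r, Ccr2 and Ly6c2 were called lower in HSC over both genotypes, where 4.85% of all genes were called. Cx3cr1 was slightly higher in HSC (0.06), and Adgre1 averaged 4.95 in KO HSC and in WT HSC, 5.06 in KO MPP and 4.93 in WT MPP. The T and NK cell list (5 of 6 measured) averaged 4.51 to 4.95 in HSC and 4.95 to 5.31 in MPP. There Nkg7, a cytotoxic granule gene, fell by 2.18 in HSC (limma adjusted p = 1.59e-05), while Cd3e, a defining T cell gene, differed by -0.01 (95% interval -0.26 to 0.23, limma adjusted p = 0.958). The defining genes Cd3d, Cd3g and Klrb1c were under the filter on low values. The neutrophil list (9 of 9 measured) ranged from 5.69 to 8.02 in HSC and from 4.82 to 7.12 in MPP. HSC minus MPP of its mean within a mouse was -0.49, 1.15 and -0.16 in KO mice 2, 11 and 70 and between 0.90 and 1.11 in the 3 WT mice. Of its 8 tested genes, 5 were above 0 in KO mice and 7 in WT mice, and 0 of the 8 tested genes were called or had an unadjusted p under 0.05 in limma's test. The part of these markers in the differences of Itgal and Itgam was not tested.

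**Figure D3:**
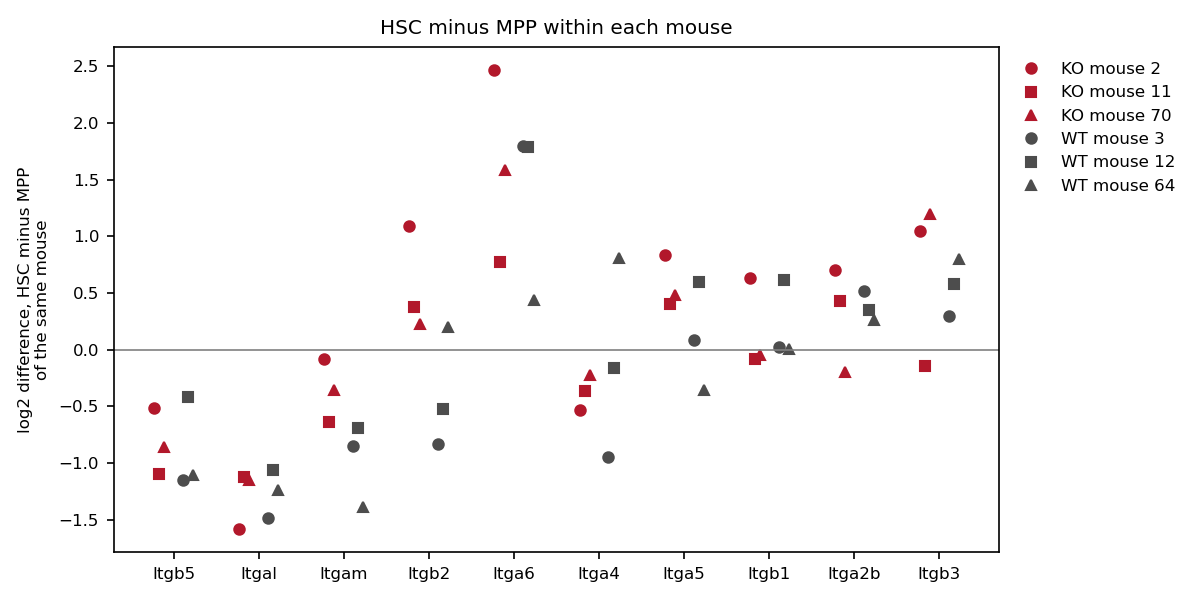
Difference in log2 intensity between the HSC and the MPP array of the same mouse, for the 10 integrin genes, with KO mice 2, 11 and 70 in red and WT mice 3, 12 and 64 in grey. All 6 mice lie below 0 for Itgb5, Itgal and Itgam and above 0 for Itga6; for Itgb2 the 3 KO mice lie above 0 and the WT mice on both sides.

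Of the integrins with the beta1 chain, Itga6 differed and its partner Itgb1 showed no call. Itga6 encodes CD49f, a laminin receptor chain used as a marker of stem cells in human blood. In HSC it read 9.45, 8.82 and 8.46 in KO mice and 9.36, 9.30 and 9.08 in WT mice. In MPP it read 6.98, 8.05 and 6.88 in KO mice and 7.57, 7.51 and 8.65 in WT mice. HSC lay above MPP within each genotype, but the MPP array of WT mouse 64 was above the lowest KO HSC array. HSC minus MPP was 1.61 in KO mice (SE 0.38, limma adjusted p = 0.0815) and 1.34 in WT mice (SE 0.38, limma adjusted p = 0.129). Without the HSC array of KO mouse 2 the KO value was also 1.34 (limma adjusted p = 0.220).

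Over both genotypes Itga6 was 1.47 higher in HSC (SE 0.27, limma adjusted p = 0.0106, and 0.0393 with the mouse as a block). That call was lost without mouse 2 (adjusted p = 0.0525), mouse 3 (0.0644) or mouse 12 (0.0685). Single mice gave differences from 0.44 in WT mouse 64 to 2.47 in KO mouse 2, higher in HSC in 6 of 6 mice.

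Itgb1, the common beta chain of the fibronectin, laminin and VCAM1 receptors, read 10.13 to 10.60 in KO HSC, 10.05 to 10.56 in WT HSC, 9.97 to 10.51 in KO MPP and 9.94 to 10.19 in WT MPP. Its 4 groups overlapped, and HSC minus MPP over both genotypes was 0.19 (95% interval -0.11 to 0.50).

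Itga4, the alpha chain of the VCAM1 receptor VLA4, read 7.32 to 7.52 in KO HSC, 6.89 to 8.01 in WT HSC, 7.72 to 7.85 in KO MPP and 7.20 to 7.84 in WT MPP. The KO arrays of HSC were all below those of MPP, while the WT arrays overlapped. HSC minus MPP was -0.37 in KO mice and -0.10 in WT mice (limma adjusted p = 0.619 and 0.908). Single mice ranged from -0.95 in WT mouse 3 to 0.81 in WT mouse 64.

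Itga5, the alpha chain of the fibronectin receptor, read 5.74, 5.52 and 5.52 in KO HSC and 5.36, 5.79 and 5.30 in WT HSC. In MPP it read 4.91, 5.12 and 5.04 in KO mice and 5.27, 5.20 and 5.66 in WT mice. KO MPP was the lowest group and did not overlap any other. HSC minus MPP was 0.57 in KO mice and 0.11 in WT mice, without a call (limma adjusted p = 0.189 and 0.841).

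The platelet integrin chains were both higher in HSC on average, and neither was called. Itga2b, or CD41, read 8.55, 8.44 and 8.24 in KO HSC, 8.45, 8.29 and 8.19 in WT HSC, 7.85, 8.01 and 8.43 in KO MPP and 7.94, 7.94 and 7.93 in WT MPP. The WT groups were apart, and in KO mice the MPP array of mouse 70 reached the HSC range. HSC minus MPP was 0.31 in KO mice, 0.37 in WT mice and 0.34 over both (SE 0.12, limma adjusted p = 0.142).

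Itgb3, or CD61, read 6.53, 5.64 and 6.89 in KO HSC, 5.76, 6.36 and 6.30 in WT HSC, 5.48, 5.79 and 5.69 in KO MPP and 5.46, 5.78 and 5.49 in WT MPP. The HSC arrays of KO mouse 11 and WT mouse 3 lay within the MPP range. HSC minus MPP was 0.70 in KO mice, 0.56 in WT mice and 0.63 over both (SE 0.20, limma adjusted p = 0.119). Without mouse 11 the last value was 0.84 and was called (adjusted p = 0.0293).

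Megakaryocyte and platelet markers (9 of 12 measured) averaged 6.30 to 6.73 over the HSC arrays and 5.68 to 6.08 over the MPP arrays. Pf4, platelet factor, rose by 2.11 and Vwf, von Willebrand factor, by 0.98 in HSC over both genotypes (limma adjusted p = 0.000444 and 0.0142), where 4.85% of all genes were called. No other gene of this list was called there. Of its 8 tested genes, 7 were above 0 over both genotypes and 1, Gp5 at -0.08, was below. In KO mice 6 were above 0 and 2 below. Gp6 was under the filter on low values. The part of this list in the values of Itga2b and Itgb3 was not tested.

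For each integrin the 4 groups were put in order of their means, which gave 30 pairs of neighbours over the 10 genes. Of these pairs, 3 had arrays that did not overlap: KO MPP over WT HSC for Itgal and for Itgb5, and WT MPP over KO MPP for Itga5. Neighbouring pairs were not counted over all genes, so whether this is few or many is not known. Counted over HSC and MPP of 1 genotype, 5 of 10 members were apart in KO mice (Itga5 and Itga6 higher in HSC, Itga4, Itgal and Itgb5 lower), against 17.1% of all genes. In WT mice 5 of 10 were apart (Itga2b and Itga6 higher, Itgal, Itgam and Itgb5 lower), against 21.3% of all genes. With all 6 HSC arrays set against all 6 MPP arrays, 2 of 10 were apart (Itgal and Itgb5), against 4.21% of all genes.

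Between KO and WT cells no integrin was called in either population. In HSC 0 of 10 members were called between KO and WT, against 0% of all genes tested, and in MPP 0 of 10, again against 0%. At an unadjusted p under 0.05, limma passed 1 of 10 members in HSC and 0 of 10 in MPP, against 6.29% and 3.19% of all genes. The members' median KO minus WT difference was 0.11 in HSC and -0.16 in MPP, against 0.02 and 0.00 for all genes. The adjusted p-values of the members ran from 0.753 to 0.990 in HSC. The KO minus WT difference itself differed between HSC and MPP for 0 of 10 members, against 0% of all genes, and at an unadjusted p under 0.05 for 1 of 10, against 4.5%. With the arrays of each mouse averaged, 0 of 10 members were called between KO and WT mice, against 0% of all genes, and 0 of 10 passed at an unadjusted p under 0.05, against 4.45%.

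Itgb2 gave the largest KO minus WT difference among the members in HSC, 0.80 (SE 0.30, 95% interval 0.14 to 1.46, limma unadjusted p = 0.0219, adjusted p = 0.753). Its KO HSC mean was 6.53 ± 0.612 and its WT HSC mean 5.74 ± 0.109, and all 3 KO arrays were above the WT arrays, as was so for 8.87% of all genes in one or the other direction. KO mouse 2 was the highest, and without its HSC array the difference was 0.45 (adjusted p = 0.831). In MPP the difference of Itgb2 was -0.15 (95% interval -0.81 to 0.51), and the difference between the populations was 0.95 (limma unadjusted p = 0.0462, adjusted p = 0.9996), or 0.60 without that array. Neutrophil markers averaged 5.69 to 7.78 in KO HSC and 5.93 to 8.02 in WT HSC, and monocyte markers 5.21 to 5.69 in KO HSC and 5.27 to 5.85 in WT HSC. The mean of the T and NK cell list (5 genes measured, 2 of them tested) did not overlap, with 4.73 to 4.95 in KO HSC and 4.51 to 4.66 in WT HSC. No share over all genes was counted for such list means. Of its 2 tested genes, Nkg7 read 6.38 to 6.95 in KO HSC and 5.75 to 6.17 in WT HSC, a difference of 0.74 (limma unadjusted p = 0.00399, adjusted p = 0.586), and Cd3e differed by 0.23 (limma adjusted p = 0.914). Of its genes under the filter on low values, Cd3d averaged 4.45 in KO HSC and 4.67 in WT HSC. Cd3g averaged 3.67 in KO HSC and 3.32 in WT HSC, and Klrb1c 4.17 and 3.83. The part of this list in the difference of Itgb2 was not tested.

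**Figure D4:**
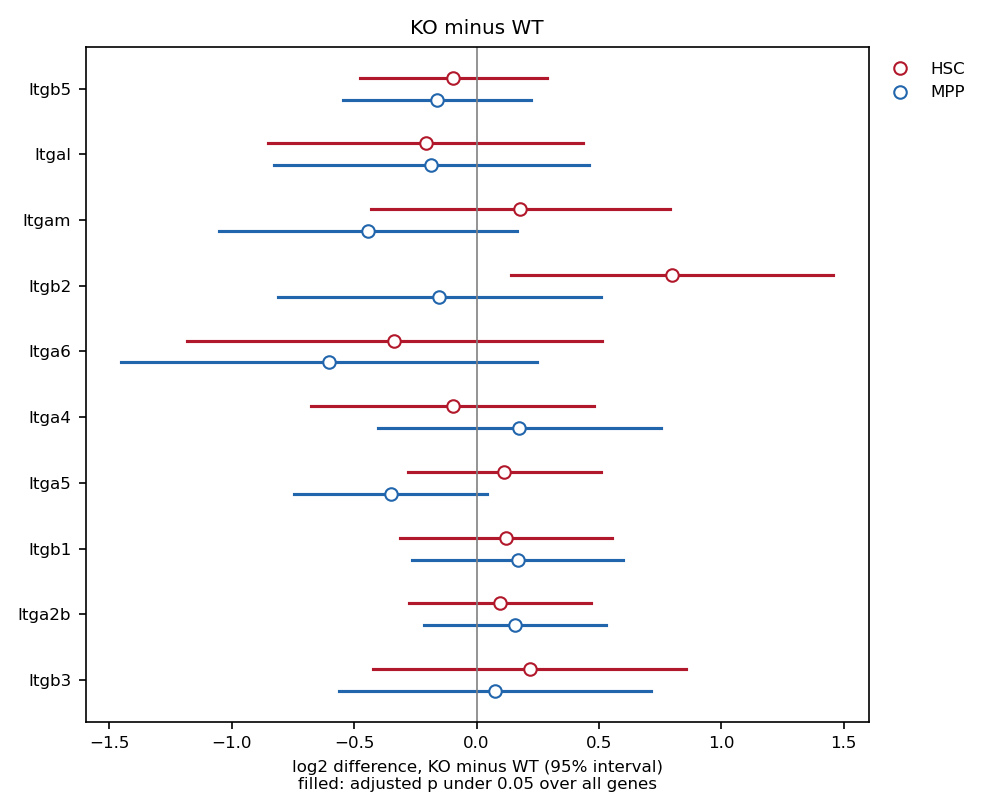
Log2 difference of KO minus WT in HSC and in MPP for the 10 integrin genes, with 95% intervals from the limma fit of 12 arrays; no point is filled, since no member had an adjusted p under 0.05. The interval of Itgb2 in HSC, 0.14 to 1.46, is the one that lies apart from 0.

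In MPP the largest differences among the members were those of Itga6 and Itgam, neither of them called. Itga6 averaged 7.30 ± 0.643 in KO MPP and 7.91 ± 0.641 in WT MPP, a difference of -0.60 (95% interval -1.45 to 0.25). In HSC it averaged 8.91 ± 0.499 in KO mice and 9.25 ± 0.144 in WT mice, a difference of -0.34 (95% interval -1.18 to 0.51). That difference was -0.61 without the HSC array of KO mouse 2. With both populations of a mouse averaged, Itga6 was -0.47 in KO against WT mice (limma adjusted p = 0.99993). The arrays overlapped in both populations.

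Itgam averaged 6.21 ± 0.532 in KO MPP and 6.65 ± 0.156 in WT MPP, a difference of -0.44 (95% interval -1.05 to 0.17), against 0.18 in HSC. The difference between the populations was 0.62 (SE 0.39, limma adjusted p = 0.9996). For Itga5 it was 0.46 (SE 0.25), with KO minus WT at 0.11 in HSC and -0.35 in MPP. The KO MPP arrays of Itga5 were all below the WT MPP arrays, 1 of 10 members apart in MPP against 9.49% of all genes.

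The members called lower in HSC than in MPP over both genotypes were Itgb5 and Itgal. Between KO and WT, Itgb5 was at -0.10 in HSC and -0.16 in MPP, with intervals from -0.48 to 0.29 and from -0.54 to 0.22. Itgal was at -0.21 in HSC and -0.19 in MPP, with intervals from -0.85 to 0.44 and from -0.83 to 0.46. Without the HSC array of KO mouse 2 the HSC values were -0.23 for Itgb5 and -0.42 for Itgal. The remaining members, Itga2b, Itga4, Itgb1 and Itgb3, lay between -0.10 and 0.22 in HSC and between 0.08 and 0.17 in MPP.

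NFAT5 is a factor of the Rel family that cells use under hypertonic stress, and it binds sites with the core TGGAAA. Of the 6 promoters at hand, those of Itgam, Itga5 and Itgb1 hold this core, on either strand, and 18.6% of all 32851 promoters do. These windows of 250 bases before the gene start are shown because they carry the sequence of the factor that was deleted, with that core and 2 other motifs in capitals: TGGAAA (or TTTCCA on the opposite strand), the GC box GGGCGG (or CCGCCC) and the ETS motif GAGGAA (or TTCCTC). They lie at chr7:128062390-128062639 on the plus strand (Itgam), chr15:103366792-103367041 on the minus strand (Itga5) and chr8:128685404-128685653 on the plus strand (Itgb1) of GRCm38.p6.

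Itgam: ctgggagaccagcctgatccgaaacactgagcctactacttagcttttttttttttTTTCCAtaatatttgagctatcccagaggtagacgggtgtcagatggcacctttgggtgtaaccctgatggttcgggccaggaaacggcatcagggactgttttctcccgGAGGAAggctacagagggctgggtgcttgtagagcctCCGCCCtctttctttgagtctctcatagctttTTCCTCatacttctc

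Itga5: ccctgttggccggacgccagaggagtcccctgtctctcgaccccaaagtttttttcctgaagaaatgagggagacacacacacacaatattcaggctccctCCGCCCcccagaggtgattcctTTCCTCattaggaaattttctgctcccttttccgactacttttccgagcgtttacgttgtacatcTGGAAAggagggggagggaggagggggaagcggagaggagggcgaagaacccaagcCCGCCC

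Itgb1: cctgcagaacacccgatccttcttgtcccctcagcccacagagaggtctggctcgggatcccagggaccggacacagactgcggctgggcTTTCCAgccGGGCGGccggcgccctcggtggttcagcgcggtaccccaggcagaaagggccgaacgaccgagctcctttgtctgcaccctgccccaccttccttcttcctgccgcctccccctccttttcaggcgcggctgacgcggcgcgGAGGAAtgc

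The core lies 194 bases before the start in Itgam and 160 in Itgb1, both on the opposite strand, and 62 bases before the start on the strand of the gene in Itga5. None of these matches overlap. The promoters of Itga2b, Itga4 and Itgb5 hold no core in their windows. A match is a description of the letters only. Between KO and WT cells neither Itgam, Itga5 nor Itgb1 was called, and Itgb1 differed by 0.12 in HSC and 0.17 in MPP.

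The other genes of the pathway were counted in 4 lists. Their median HSC minus MPP difference over both genotypes was 0.13 for other integrin subunits, 0.18 for ligands, 0.15 for activators and adaptors and -0.09 for adhesion signalling genes, against 0.14 for the 10 members and 0.05 for all genes tested. Of the other integrin subunits, 12 of 16 listed were tested and 0 were called in any comparison of HSC with MPP or of KO with WT, nor did any pass limma's test at an unadjusted p under 0.05. Those with the lowest p between HSC and MPP of WT mice were Itgb6 (0.23), a chain of epithelial cells, Itga9 (-0.30), which binds tenascin, Itga7 (0.29), the laminin receptor chain of muscle, and Itgb4 (0.24), the epithelial partner of Itga6. Between KO and WT HSC they were Itgav (-0.26) and Itgb7 (0.22), with limma adjusted p-values of 0.867 and 0.940.

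Of the ligands, 16 of 21 listed were tested and 0 were called, while 4 had an unadjusted p under 0.05 in limma's test of HSC against MPP over both genotypes, where 19.6% of all genes did. Postn, the matrix protein periostin, had HSC minus MPP of -2.14 in WT mice (limma adjusted p = 0.130), with WT MPP arrays spread from 5.21 to 8.36. Icam2, a ligand of LFA1, was at 0.77, Icam4 at 0.57 and the collagen gene Col4a1 at 0.31. Lamc1, a laminin chain, read 6.07 to 9.93 in KO HSC and 4.59 to 6.03 in WT HSC, a difference of 2.59 (limma adjusted p = 0.754), and Icam2 was at -0.60 there.

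Of 21 activators and adaptors, all tested, 1 was called between HSC and MPP over both genotypes, against 4.85% of all genes, which is near that share. Fermt3, the kindlin that blood cells need to switch integrins on, was 0.80 higher in HSC over both genotypes (limma adjusted p = 0.0390). It averaged 7.22 ± 0.438 in KO HSC and 6.44 ± 0.393 in WT HSC, against 6.11 ± 0.239 in KO MPP and 5.95 ± 0.314 in WT MPP. Between KO and WT HSC its difference of 0.78 was not called (limma adjusted p = 0.697), and that of Cytip, which binds cytohesin, was 0.87 (0.790). In WT mice Itgb1bp1, a negative regulator of the beta1 chain, was at 1.42, Apbb1ip (the adaptor RIAM) at -0.57, the Rap1 exchange factors Rapgef1 and Rasgrp2 at 0.39 and -0.96, none of them called.

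Of the adhesion signalling genes, 28 of 32 listed were tested, and 0 were called in KO mice, 1 in WT mice and 2 over both genotypes, all lower in HSC, against 1.26% of all genes in KO mice, 2.07% in WT mice and 4.85% over both. With so few calls the list is not set apart from all genes. Lims1, the adaptor PINCH that binds integrin-linked kinase, was lower in HSC of WT mice (-0.70, limma adjusted p = 0.0228) and over both genotypes (-0.60, limma adjusted p = 0.00403). Vav3 fell by 1.29 in HSC over both genotypes (limma adjusted p = 0.0228). Parvg, the parvin of blood cells, was at -1.57 in WT mice (limma adjusted p = 0.0550) and Actn4, an actinin that links integrins to actin, at -0.59 (0.193). Between KO and WT HSC, Actn4 was at 0.82 (limma adjusted p = 0.523) and Git2, an adaptor that binds paxillin, at 1.98 (0.690). The KO HSC arrays of Git2 were spread from 7.29 to 10.18, against 6.09 to 6.59 in WT HSC.

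**Figure D5:**
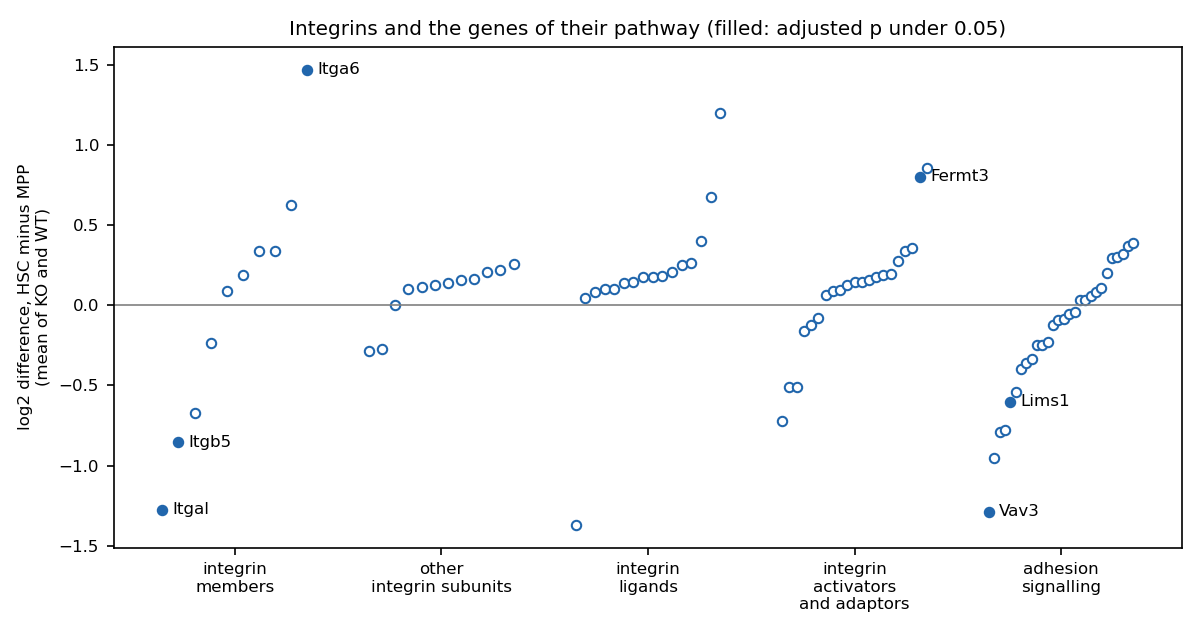
Log2 difference of HSC minus MPP over both genotypes for each tested gene of 5 lists: the 10 integrin members, 12 other integrin subunits, 16 ligands, 21 activators and adaptors and 28 adhesion signalling genes, each list sorted from low to high. Filled points had an adjusted p under 0.05 over all genes: Itgal, Itgb5 and Itga6 among the members, Fermt3, Lims1 and Vav3 among the other lists.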

How the data were processed

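RNA of sorted HSC and MPP was profiled on 12 arrays, 1 per mouse and population. The deposited log2 intensities, 1 per probe set and array, had been normalized by the authors; per the submitters' processing notes the tools were RMA and limma. Their versions and the genome build stand in none of the sources used here. Per the labels' protocols, picogram amounts of RNA were amplified, which adds noise to weak transcripts. RMA sets the probe intensities of arrays to 1 distribution and compresses weak differences. The deposited probe set values still differed in array median, from 5.81 to 5.91. Precision is limited by the number of arrays.

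Of 22142 probe sets, 19527 had 1 gene symbol, 0 several and 2615 none; all 19527 matched a GRCm38.p6 gene table by gene ID. The probe set with the highest mean was kept per gene (19494 genes), and the lowest 25% by mean over all arrays (below 4.96) were left out. A limma fit of 4 group means (R 4.3.3, limma 3.58.1, statmod 1.5.0) gave two-sided tests with Benjamini-Hochberg adjustment. KO and WT mice were also compared by the mean of each mouse's arrays. The script was tested on simulated data.

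HSC and MPP of 1 mouse share a number in the labels, so the mouse pairs them; deviations of paired arrays from their group means correlated at 0.03 to 0.09. Named genes were all 10 members, per list the 4 with the lowest p between WT HSC and MPP and the 2 with the lowest p between KO and WT HSC, and those called. The marker lists also covered B cells (0 of 3 tested called in KO or WT mice, 1 of 3, Cd79a at -0.98, over both genotypes), erythroid cells (0 of 3 called) and endothelial and stromal cells (Pecam1 at -1.20 the 1 of 4 called over both genotypes). Of all genes tested, 4.85% were called over both genotypes. Pecam1 was the 1 endothelial and stromal gene below 0 there, and the other 3 were above 0, by up to 0.57. The members and lists were chosen with earlier results of these data known. Alternatives are given in the closing section.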

Additional observations from a re-analysis of the deposited data

Results flagged for a closer look

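Dixon's test was run on the 6 HSC and the 6 MPP arrays of each of the 10 members, and 2 of these 20 sets had an array far from the others. Chance alone gives about 1 in 20. Itga2b read 8.43 in the MPP of KO mouse 70, above 7.85 to 8.01 on the other MPP arrays and within its range in HSC. Itga4 read 7.20 in the MPP of WT mouse 64, below 7.72 to 7.85 on the other MPP arrays. HSC of the same mouse had the highest Itga4 value of all arrays, 8.01.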

How the results depend on the processing

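The counts of genes called between HSC and MPP depended on the mice. In KO mice the 184 genes became 79 with only the arrays compared, 113 with the mouse as a replicate block, 106 when the HSC array of KO mouse 2 was left out, and 57 to 168 with each mouse left out (57 without mouse 2, 83 without 11, 86 without 70). In WT mice the 302 genes became 180 with the mouse as a block and 70 to 297 with each mouse left out (82 without mouse 3, 96 without 12, 70 without 64). Over both genotypes the 709 genes became 379 to 524 with each mouse left out (462 without mouse 3, 425 without 12, 379 without 64). KO against WT HSC called 0 to 1 genes when a mouse was left out, 1 of them without mouse 11. The other settings kept these counts within 1.5 times, and KO against WT in MPP, the interaction and the mean of both populations called 0 genes in each. Beyond the members' calls named in the report, the block changed no member's call. Members called in KO mice numbered 0 to 1 over the settings and in WT mice 0 to 2: Itgal passed in KO mice in 2 of 14 settings and in WT mice in 8 of 14, and Itgb5 passed in KO mice in 3 of 15. Fewer samples remain when a mouse is left out; for the other changes the cause was not tested.

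Differences that turned sign were all uncalled. HSC minus MPP of Itga4 in WT mice was 0.010 after a second quantile normalization, and -0.56 to 0.32 with each mouse left out. That of Itgb2 over both genotypes was -0.086 without that HSC array and -0.057 to 0.20 with each mouse left out. Leaving out each mouse also gave -0.067 to 0.29 for Itgb1 in KO mice and -0.13 to 0.34 for Itga5 in WT mice. For KO minus WT in HSC it gave -0.40 to 0.16 for Itga4, -0.040 to 0.33 for Itgam, -0.051 to 0.57 for Itgb3 and -0.23 to 0.021 for Itgb5. In MPP it gave -0.0098 to 0.28 for Itga2b, -0.023 to 0.29 for Itga4, -0.54 to 0.063 for Itgal and -0.38 to 0.042 for Itgb2. Itga5 and Itgal drop out when the lower 50% of genes are left out. No paired analysis was possible for the mean of both populations, because each mouse then gives 1 value.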
